A study of Saccharomyces cerevisiae with 6 samples.

Results

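The proteasome genes of Saccharomyces cerevisiae were followed by SLAM-seq in cultures with and without UPF3. They were taken as the 33 genes named PRE, PUP, SCL1, RPT and RPN in the list used here, all 33 found among the 5560 genes of the deposited tables: 7 alpha and 7 beta subunits of the core particle, 6 base ATPases, 12 other subunits of the regulatory particle, and RPN4, which encodes no subunit. SLAM-seq marks new RNA with 4-thiouracil (4TU), whose T>C conversions in the reads are lost as labelled RNA decays during a chase. The upf3 deletion and the wild type both had the BY4741 background, a haploid laboratory strain, with 3 cultures each, which the design text calls biological triplicates. Per culture there were 7 libraries of 3′ ends, 1 treated with DMSO and unlabelled and 6 labelled with 4TU, whose chase times averaged 0, 1.11, 3.92, 7.85, 17.9 and 57.7. No unit is attached to these times, which are read as minutes. The points are named below by their rounded times of 0, 1, 4, 8, 18 and 58. The series was made to find targets of nonsense-mediated decay, in which Upf3 is a core factor.

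The proteasome degrades proteins tagged with ubiquitin. Its core particle is a stack of rings in which alpha subunits form the gate and beta subunits hold the active sites, and its regulatory particle binds, unfolds and deubiquitinates substrates with a ring of ATPases and a set of non-ATPase subunits. In yeast the transcription factor Rpn4 activates most of these genes together and is itself a short-lived substrate of the proteasome, which closes a feedback loop.

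The 42 libraries held 11045419 to 23761767 reads in gene windows. Every member was measured in every library, with a lowest count of 181 reads (RPN1), and at most 0.207% of a member's reads were multi-mapping (PRE10). No member overlapped another annotated gene. UPF3 itself fell in the deletion (log2 change −2.81, SE 0.43, adjusted p = 0.0149 in unlabelled reads by edgeR). Replicate 1 of both genotypes stood apart from replicates 2 and 3 with gene length. Among genes of 2133 bases or more it lay lower by a median log2 of −0.47 in the deletion and −0.74 in wild type, and among genes of 675 bases or fewer higher by 0.27 and 0.46. RPN1, the longest member at 2982 bases, lay at −1.54 in the deletion and −2.85 in wild type on the same scale. RPN10, a ubiquitin receptor of 807 bases, lay at −1.90 and −1.50, so length did not order the members by itself. The libraries of deletion replicate 1 at chase 0 and 4 also stood apart within their culture. Its 6 base ATPase genes summed to 551.4 and 420.1 normalised CPM there (CPM, counts scaled to the size of the library, here by TMM over all libraries), against 833.4 to 1058 in its other 5 libraries. Not all members lay lower there. The beta subunit gene PRE1 had 419.8 and 435.7, against 244.7 to 306.5 in the other 5 libraries of this culture. The part of these libraries in the results was not tested beyond the values given without them.

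Per kilobase of counting window, the subunit genes were abundant. In unlabelled wild-type libraries their median was 347.1 normalised CPM per kilobase, against 72.02 over all genes. Levels of the 32 subunit genes ran to 817.4 ± 102.1 for PUP2, an alpha ring subunit (SD, n = 3), at the high end. RPT1, a base ATPase, was lowest, at 182.4 ± 43.6 on the same scale, with RPN1 next at 190.7 ± 134.6, which is within its spread. RPN4 stood at 164.2 ± 26.1, below the mean of every subunit gene but within 1 SD of RPT1, and at the 75.1 percentile of all genes. Because reads come from 3′ ends, a value per window also depends on where the ends fall.

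Deletion of UPF3 left no detectable change in the read level of any proteasome gene when the cultures were compared as independent groups. In unlabelled libraries 0 of 32 subunit genes were called at an adjusted p under 0.05 by edgeR's quasi-likelihood test, beside 3.30% of all genes tested (3.23% higher and 0.0726% lower). DESeq2 also called 0 of 32, and edgeR had 0 at an unadjusted p under 0.05. The log2 changes of the subunit genes ran from −0.42 (RPN3) to 0.55 (RPN13), with a median of −0.13, beside −0.04 over all genes. A total of 24 were negative and 8 positive, or 28 and 4 with the size factors of DESeq2. Their 3 deletion cultures overlapped the 3 wild-type cultures for all 32 genes, beside 18.7% of all genes that did not overlap.

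**Figure D1:**
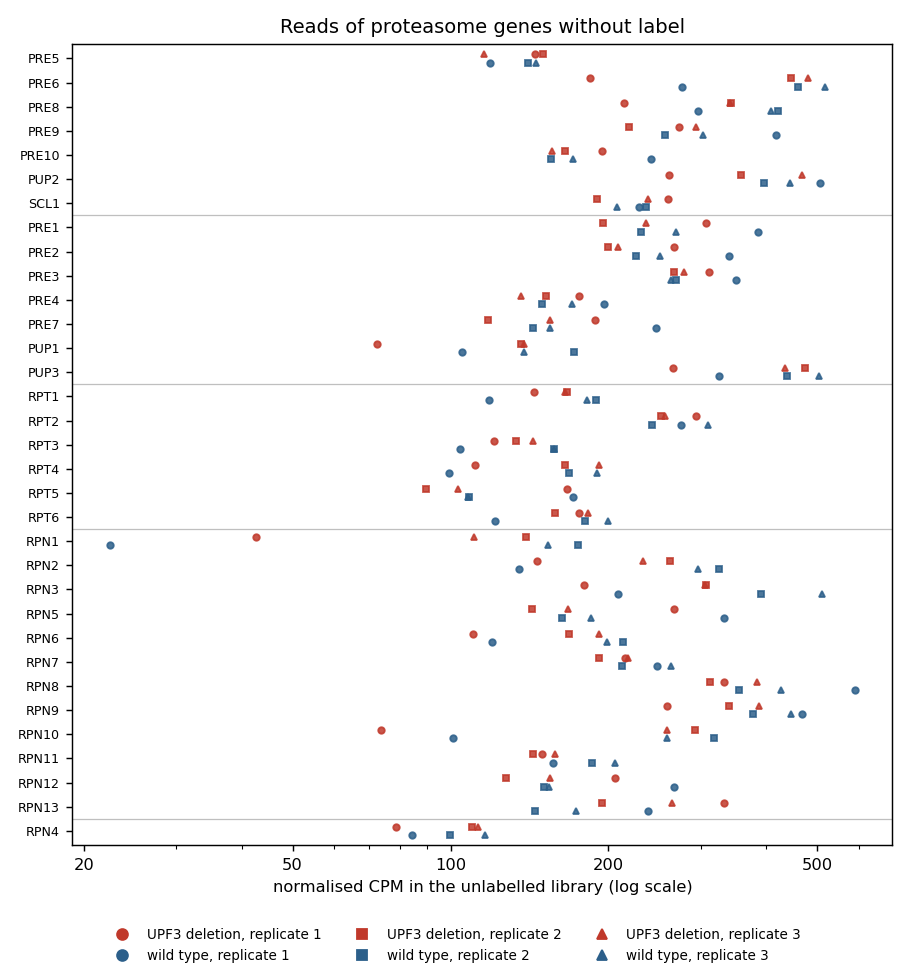
Normalised CPM (log axis) of the 33 proteasome genes in the unlabelled library of each culture, the UPF3 deletion in red and wild type in blue, with symbols for replicates and lines between the classes (core alpha, core beta, base ATPase, regulatory non-ATPase, activator). The red and blue points overlap for every gene, and the lowest value of all is RPN1 in wild-type replicate 1, at 22.41.

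The active sites of the core lie in 3 beta subunits, and none of these genes passed the test between genotypes. PRE3, the caspase-like site, had 310.5, 267.2 and 278.9 normalised CPM in the deletion cultures 1 to 3, against 349.4, 269.1 and 263.6 in the wild-type cultures (log2 change 0.01, SE 0.21, edgeR adjusted p = 1). PUP1, the trypsin-like site, had 72.42, 136.5 and 137.8 in the deletion and 105.1, 171.9 and 138.1 in wild type (−0.19, SE 0.34, adjusted p = 0.993). PRE2, the chymotrypsin-like site, had 266.5, 199.2 and 208.8 in the deletion and 339.0, 225.3 and 250.4 in wild type (−0.22, SE 0.23, adjusted p = 0.955). In each of the 3 genes the groups overlapped, and for PUP1 replicate 1 was the lowest culture of both genotypes. RPN11 (YFR004W), the deubiquitinase of the regulatory particle, had 149.4, 143.4 and 158.5 in the deletion and 157.0, 186.3 and 205.4 in wild type. Its lowest wild-type culture lay just under the highest deletion culture, and the change was not called (−0.23, SE 0.20, adjusted p = 0.91).

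RPN13 (YLR421C), the gene of a ubiquitin receptor at the tip of the regulatory particle, had the lowest p of the subunit genes. It lies on chromosome XII, 965090 to 965560 (R64). In unlabelled libraries it had 332.4, 194.4 and 264.2 normalised CPM in the deletion cultures 1 to 3 and 237.4, 144.6 and 173.6 in wild type. The deletion culture was higher in each of the 3 same-numbered pairs, while the groups as such overlapped. The test over independent cultures gave a log2 change of 0.55 (SE 0.27, edgeR adjusted p = 0.532). With the replicate number as a block, RPN13 was higher (0.56, SE 0.14, adjusted p = 0.0184), as the 1 subunit gene called beside 15.4% of all genes (13.2% higher and 2.17% lower). That pairing was inferred from the cultures' deviations in these same data, which mainly set replicate 1 apart.

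The sum of the 6 labelled libraries gave a similar account. No subunit gene of 32 was called by edgeR, beside 5.76% of all genes, 5.58% higher and 0.180% lower (0 by DESeq2, and 0 at an unadjusted p under 0.05), with a median log2 change of −0.09 beside −0.01 over all genes. The lowest p was that of RPN11, which had 134.6, 138.9 and 155.2 normalised CPM in the deletion and 183.5, 164.6 and 179.7 in wild type. The groups did not overlap, but the change missed the threshold (−0.30, SE 0.15, adjusted p = 0.464). With the replicate block, beside 27.5% of all genes called (1109 of 5556 genes higher, and 7.52% lower), 3 subunit genes passed. RPN13 was higher (0.46, SE 0.10, adjusted p = 0.0154), and RPN3, a structural subunit of the lid, and RPN1, a scaffold of the base, were lower (−0.51, SE 0.13, 0.0251 and −0.74, SE 0.22, 0.0444). Without replicate 1 of both genotypes, RPN13 was called higher (0.38, SE 0.08, adjusted p = 0.0164). In that fit RPN1 (−0.35, adjusted p = 0.0732) and RPN3 (−0.32, adjusted p = 0.155) missed the threshold. RPN1 had 31.57, 119.0 and 151.5 in the deletion and 88.31, 176.5 and 172.9 in wild type, replicate 1 being the lowest of both.

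The next gene after the 3′ end of RPN13 is URA4, which encodes an enzyme of pyrimidine synthesis, on the opposite strand 210 bases away. It was looked at after the values of RPN13 were seen, because no source used here says if reads were counted by strand. URA4 had 503.7, 262.4 and 278.1 normalised CPM in the unlabelled deletion cultures and 375.5, 169.4 and 185.2 in wild type, higher in the deletion in each numbered pair as RPN13 was (log2 change 0.56, SE 0.39, edgeR adjusted p = 0.793 without the block). Its part in the reads of RPN13 was not tested.

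At single chase points the subunit genes whose genotypes did not overlap all had the deletion below. They numbered 5 of 32 at chase 0, beside 9.15% of all genes, 5 at chase 1 (8.19%), 9 at chase 4 (12.1%), 1 at chase 8 (6.79%), 2 at chase 18 (8.20%) and 1 at chase 58 (9.77%), and 0 had the deletion above at any point, beside 10.5%, 12.5%, 9.97%, 12.7%, 13.9% and 14.6% of all genes at those 6 points. RPN11 was among them at each point but the last. At chase 4 it had 68.76, 132.9 and 139.4 normalised CPM in the deletion and 173.6, 151.7 and 181.6 in wild type, and at chase 8 it had 149.1, 131.2 and 137.2 in the deletion and 193.2, 163.7 and 180.3 in wild type. Deletion replicate 1 was the lowest at chase 4 and the highest of its group at chase 8. At chase 4 the count included the base ATPase genes RPT1, RPT2, RPT4 and RPT5. The library of deletion replicate 1, low in the sum of this class, is one of the 3 deletion values for each. For RPT5 the 3 deletion values lay close together, with a mean of 104.3 ± 3.84 normalised CPM (SD, n = 3), against 120.4 ± 60.7 for RPT1.

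RPN4 (YDL020C), the activator gene, was higher at chase 4 than at chase 0 in both genotypes, and no difference between the genotypes was called in its level. The gene lies on chromosome IV, 415113 to 416708. In unlabelled libraries it had 78.87, 109.8 and 112.8 normalised CPM in the deletion, against 84.54, 99.62 and 116.3 in wild type (log2 change 0.07, SE 0.25, edgeR adjusted p = 0.993), and the groups overlapped. At chase 4 the deletion cultures had 118.7, 114.2 and 132.2, against 58.82, 95.55 and 101.6 at chase 0. The wild-type cultures had 137.5, 148.1 and 181.1 at chase 4, against 60.97, 87.36 and 102.1 at chase 0. RPN4 was higher at chase 4 in 6 of 6 cultures (0.72, SE 0.12, adjusted p = 0.00129, with the culture as a block), beside 12.6% of all genes called, 7.96% higher and 4.64% lower. In wild type, chase 4 was the highest of the 7 libraries in every culture.

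After chase 4 the values of RPN4 were lower in every culture at every later point. At chase 8 it had 94.12, 109.5 and 130.1 in the deletion and 87.72, 128.6 and 151.7 in wild type. At chase 18 the values were 91.0, 96.45 and 108.0 in the deletion and 85.07, 108.8 and 120.2 in wild type, still above chase 0 in 6 of 6 cultures (0.30, SE 0.10, adjusted p = 0.0555). At chase 58 they were 81.26, 106.0 and 100.2 in the deletion and 96.74, 107.8 and 96.98 in wild type, 4 of 6 above chase 0 (0.24, SE 0.12, adjusted p = 0.231). Over the 6 cultures neither later difference was called. Within wild type alone RPN4 was called higher at chase 18 (0.36, SE 0.09, edgeR adjusted p = 0.0221). Within the deletion alone it was not (0.19, SE 0.20, adjusted p = 0.615). A difference between genotypes in this change was not called (difference of log2 changes −0.11, SE 0.21, edgeR adjusted p = 0.858). Across 14 settings the call was made in 2 at chase 18 and in 1 at chase 58. The first labelled library lay below the unlabelled one in 6 of 6 cultures (−0.27, SE 0.11, adjusted p = 0.158), short of the threshold.

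The height of RPN4 at chase 4 did not overlap between genotypes: each of the deletion cultures, 118.7, 114.2 and 132.2, was under each of the wild-type cultures, 137.5, 148.1 and 181.1. Among all genes 12.1% had the deletion below in this way at chase 4. A difference between genotypes in the change since chase 0 was not called (difference of log2 changes −0.38, SE 0.21, edgeR adjusted p = 0.877). Within wild type alone RPN4 rose by 0.91 (SE 0.09, adjusted p = 0.000248), and within the deletion alone it was 0.55 higher without a call (SE 0.17, adjusted p = 0.192). The call over 6 cultures was kept with each culture left out, with log2 changes of 0.64 to 0.83, and was lost without the culture block (0.70, adjusted p = 0.247).

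**Figure D2:**
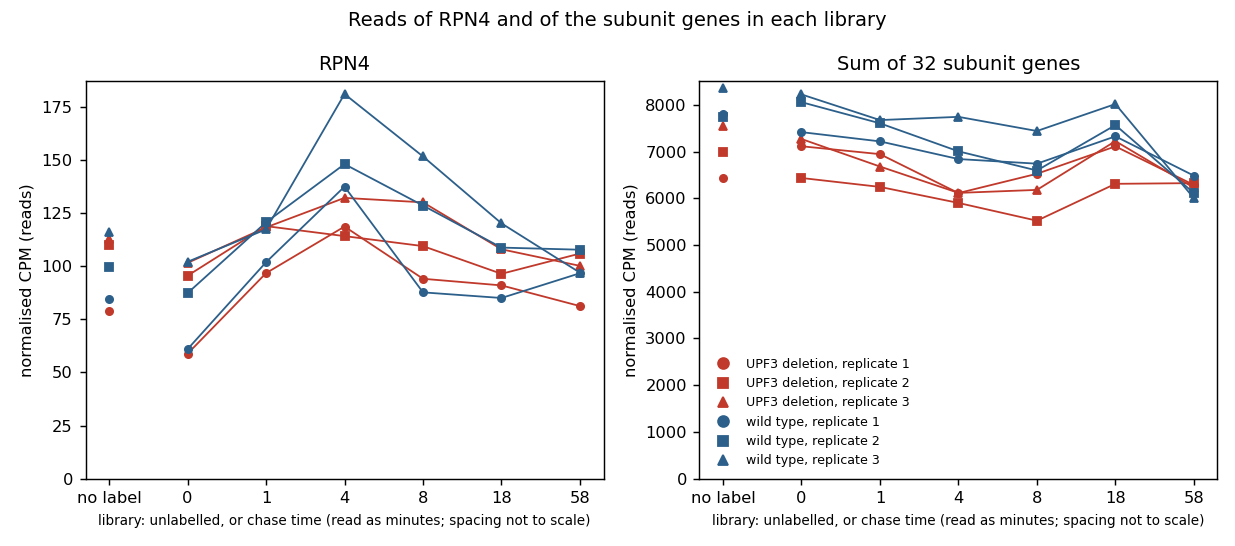
Normalised CPM of RPN4 (left) and summed over the 32 subunit genes (right) in the unlabelled library and at each chase point, 1 line per culture, the UPF3 deletion in red and wild type in blue. RPN4 peaks at chase 4 in wild type at 137.5 to 181.1, while the subunit sum there lies at 5900 to 6115 in the deletion and 6839 to 7742 in wild type.

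The subunit genes lay lower at the point where RPN4 was high. All chase comparisons share their chase 0 libraries. Their summed level at chase 4 was 6111, 5900 and 6115 normalised CPM in the deletion, against 7113, 6434 and 7268 at chase 0, and 6839, 7004 and 7742 in wild type, against 7415, 8056 and 8222 at chase 0. It was lower at chase 4 in 6 of 6 cultures. Of the 32 genes, 30 had a negative log2 change, with a median of −0.17 beside 0.01 over all genes, and 5 were called lower and 0 higher by edgeR, beside 4.64% of all genes called lower and 7.96% higher.

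Of the 5 genes that fell at chase 4, 3 encode alpha subunits of the core. PUP2 (YGR253C), the largest fall, had 314.7, 227.1 and 253.6 normalised CPM at chase 4 in the deletion, against 449.8, 301.5 and 418.3 at chase 0. In wild type it had 358.1, 307.8 and 428.4 at chase 4, against 410.7, 437.1 and 481.7 at chase 0 (−0.43, SE 0.08, adjusted p = 0.00583). It was lower in 6 of 6 cultures, and in the deletion by more in each numbered pair but the second. PRE6 (YOL038W; −0.41, SE 0.09, adjusted p = 0.011) and PRE9 (−0.30, SE 0.08, adjusted p = 0.0221) were the other alpha subunits by edgeR. The beta subunit PUP1 (−0.25, SE 0.07, adjusted p = 0.0354) and RPN12 (YFR052W), a lid subunit needed for assembly of the regulatory particle (−0.40, SE 0.08, adjusted p = 0.00682), completed the 5.

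The number of calls depended on single cultures and on the fit. Without deletion replicate 1, whose chase 0 and 4 libraries stand apart, 10 subunit genes were called lower, beside 491 of all 5540 genes tested, and DESeq2 called 9, beside 370 of 5560, where the fit of all 6 cultures called 5 beside 257 of 5542. Without deletion replicate 2 or 3 there were 3, beside 145 and 144 of all genes, and without wild-type replicate 2 there were 2, beside 140. The calls over all genes thus moved in the same direction. PUP2 and RPN12 were called in DESeq2 and with each culture left out. Without the culture block, or in each genotype alone (0.415% of all genes lower in the deletion and 3.41% in wild type), there were 0 calls. A fit of all 42 libraries called 2, beside 2.33% of all genes lower, and no subunit gene was called for a difference between genotypes (0 of 32, beside 0% of all genes by edgeR, 1 subunit gene at an unadjusted p under 0.05, and 0 by DESeq2). The lowest p of that difference was that of RPN12 (−0.33, SE 0.14, adjusted p = 0.877), which had 185.9, 81.04 and 102.3 at chase 4 and 293.7, 107.9 and 155.0 at chase 0 in the deletion, and 163.9, 129.9 and 149.0 at chase 4 and 184.2, 164.2 and 170.2 at chase 0 in wild type.

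**Figure D3:**
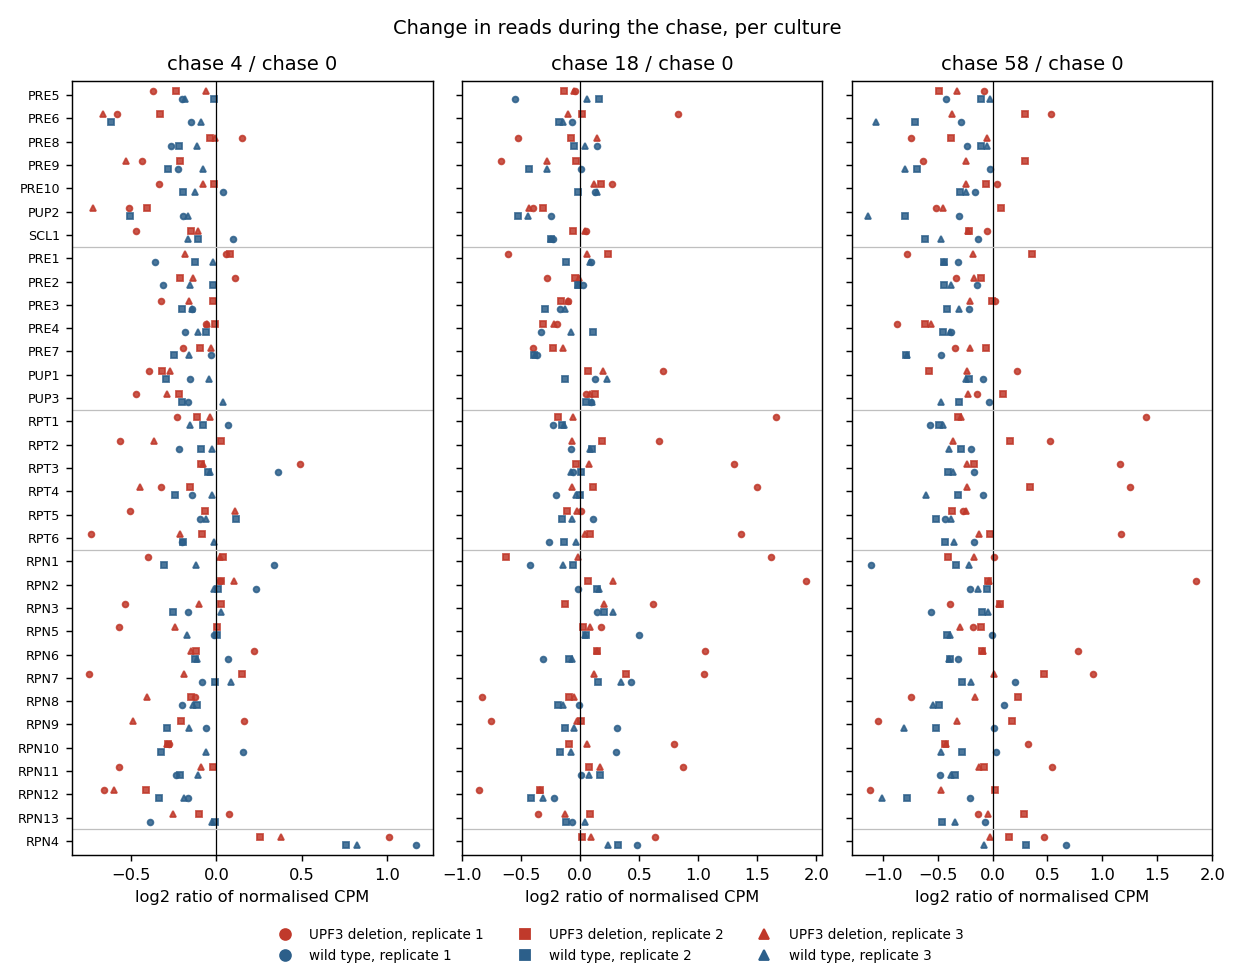
Log2 ratio of normalised CPM at chase 4, 18 and 58 over chase 0 for each proteasome gene and culture, the UPF3 deletion in red above wild type in blue within each row, the vertical line marking no change. RPN4 (bottom row) lies right of the line in all 6 cultures at chase 4 while most subunit genes lie left of it, and deletion replicate 1 (red circles) stands apart for several genes at chase 18, at 1.06 for RPN6.

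At chase 18 the subunit genes lay on both sides of their chase 0 levels. Their median log2 change against chase 0 was 0.05, beside 0.04 over all genes, with 17 positive and 15 negative. edgeR called 1 higher and 3 lower, beside 23.2% of all genes, 12.0% higher and 11.2% lower, so neither count stood above that background. RPN7 (YPR108W), a lid subunit that links the lid to the base, was the one that rose. It had 240.7, 164.8 and 177.5 normalised CPM at chase 18 in the deletion, against 116.3, 126.3 and 163.3 at chase 0, and 249.0, 201.5 and 219.0 at chase 18 in wild type, against 184.6, 181.2 and 172.5 at chase 0 (0.42, SE 0.12, adjusted p = 0.0318). It was higher in 6 of 6 cultures, and without deletion replicate 1 the change was 0.29 (adjusted p = 0.00793). RPN12 fell most (−0.41, SE 0.11, adjusted p = 0.0261), with 161.7, 84.93 and 122.3 at chase 18 in the deletion and 158.2, 122.9 and 137.0 in wild type, each below the chase 0 value of its culture given above.

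PUP2 (−0.38, SE 0.09, adjusted p = 0.0122) and PRE7, a beta subunit without an active site (−0.31, SE 0.09, adjusted p = 0.0355), also fell at chase 18 in 6 of 6 cultures by edgeR. Leaving out wild-type replicate 2 or 3 ended all of these calls, with 0 higher and 0 lower, and without wild-type replicate 1 or deletion replicate 2 RPN7 was no longer called. Without deletion replicate 2 or 3, PUP2 alone was called lower, beside 412 of all genes in each case, without replicate 1 of both genotypes 5 were, beside 1212, against 620 with all cultures, and without the culture block 0 were called either way. In the difference between genotypes 0 of 32 were called, beside 0.0361% of all genes (1 at an unadjusted p under 0.05, and 0 by DESeq2). RPN6, a lid subunit, had the lowest p (0.59, SE 0.26, adjusted p = 0.809), with log2 changes of 1.06, 0.14 and 0.14 in deletion cultures 1 to 3 and −0.32, −0.10 and −0.07 in wild type.

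At chase 58 most subunit genes lay below chase 0 again. Their sum was 6285, 6324 and 6225 normalised CPM in the deletion and 6483, 6110 and 6000 in wild type, below chase 0 in every culture. Of 32 genes 29 had a negative log2 change, with a median of −0.23 beside 0.04 over all genes. edgeR called 5 lower and 0 higher, beside 12.7% of all genes, 6.55% lower and 6.14% higher. RPN12 fell most, with 136.0, 109.9 and 112.2 in the deletion at chase 58 and 159.8, 95.63 and 84.66 in wild type. Only deletion replicate 2 was not below its chase 0 value (−0.60, SE 0.16, adjusted p = 0.0353).

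PRE4 (YFR050C), a beta subunit without an active site, had the lowest p at chase 58. It had 112.1, 116.7 and 118.1 normalised CPM at chase 58 in the deletion, against 204.4, 178.9 and 174.1 at chase 0, and 153.4, 131.0 and 145.4 in wild type, against 198.9, 179.5 and 190.0 at chase 0 (−0.55, SE 0.10, edgeR adjusted p = 0.00729). It was lower in 6 of 6 cultures and was called with each culture left out and without the culture block. Its deletion cultures at chase 58 lay below all wild-type cultures, as the 1 such subunit gene, beside 9.77% of all genes. PUP2 (−0.53, SE 0.15, adjusted p = 0.0467), PRE7 (−0.45, SE 0.13, adjusted p = 0.0473) and the base ATPase RPT5 (−0.37, SE 0.10, adjusted p = 0.0343) made up the 5.

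The genotypes gave different counts at chase 58 when fitted alone. On their own, the wild-type cultures had 32 of 32 subunit genes with a negative log2 change, a median of −0.36 and 8 called lower, beside 5.02% of all genes lower. The deletion cultures alone had 22 negative, a median of −0.22 and 0 called, beside 1.75% of all genes lower. A fit of all 42 libraries called 10 subunit genes lower, beside 10.9% of all genes. The difference between genotypes was positive for 29 of 32 genes, with a median of 0.28 beside 0.04 over all genes, but 0 were called by edgeR beside 0% of all genes (4 at an unadjusted p under 0.05, and 0 by DESeq2), so the 2 genotypes were not shown to differ. The share of all genes at an unadjusted p under 0.05 for that difference is not given here, so the 4 stand without a background. PRE6 had the lowest p of that difference (0.87, SE 0.30, adjusted p = 0.879), with log2 changes of 0.53, 0.30 and −0.37 in deletion cultures 1 to 3 and −0.29, −0.71 and −1.06 in wild type.

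Leaving out 1 culture changed the count at chase 58. Without deletion replicate 3, wild-type replicate 2 or wild-type replicate 3, PRE4 alone was called lower, without wild-type replicate 1 there were 2, without the culture block 1, and without deletion replicate 1 there were 7. Over all genes 211, 198, 215, 320, 124 and 423 were lower in these 6 fits, in the same order, against 363 with all cultures and the block. Compared directly at chase 58, deletion against wild type, 0 of 32 subunit genes were called by edgeR, beside 5.61% of all genes, 5.40% higher and 0.218% lower (0 at an unadjusted p under 0.05, 0 by DESeq2), with a median log2 change of 0.10 beside −0.06 over all genes. With the replicate block, RPN13 (0.78, SE 0.11, adjusted p = 0.00141) and PRE7 (0.38, SE 0.11, 0.0289) were higher and RPN1 (−0.64, SE 0.17, 0.0216) and PUP1 (−0.33, SE 0.11, 0.0483) lower, beside 35.7% of all genes (18.3% higher and 17.4% lower). RPN13 had 358.3, 193.5 and 179.7 in the deletion there and 229.9, 105.9 and 114.6 in wild type.

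Labelling itself, the first labelled against the unlabelled library, moved few subunit genes. Of 32, edgeR called 0 higher and 1 lower, beside 5.94% of all genes, 3.99% higher and 1.95% lower, with a median log2 change of −0.06 beside −0.01. RPN7 was the one that fell. It had 116.3, 126.3 and 163.3 normalised CPM at chase 0 in the deletion, against 215.5, 191.6 and 217.9 unlabelled, and 184.6, 181.2 and 172.5 at chase 0 in wild type, against 247.3, 211.9 and 262.9 unlabelled (−0.53, SE 0.12, adjusted p = 0.0367). The rise of RPN7 at chase 18 was measured against the same chase 0 libraries. The fall was seen in 6 of 6 cultures, but the call was lost without deletion replicate 2 or 3 or wild-type replicate 2 or 3. Without deletion replicate 1, PRE5, an alpha subunit, was higher and PRE1, a beta subunit, and RPN7 were lower. That was beside 771 of all genes higher and 681 lower. Without replicate 1 of both genotypes 3 were higher and 5 lower, beside 1279 and 1149 of all genes, against 221 and 108 with all cultures. RPT4, a base ATPase, had the lowest p for the difference between genotypes (−0.65, SE 0.32, adjusted p = 0.946), with changes of −0.86, −0.41 and −0.20 in deletion cultures 1 to 3 and 0.74, −0.11 and −0.08 in wild type. No subunit gene was called for that difference, beside 0% of all genes (0 at an unadjusted p under 0.05, 0 by DESeq2).

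Other genes of the pathway were counted in 3 lists chosen with earlier results of these data known. None of 16 assembly factors and regulators, 13 shuttle, Cdc48 and ubiquitin genes and 7 regulators of RPN4 was called between the genotypes in unlabelled, summed labelled or chase 58 reads, beside 3.30%, 5.76% and 5.61% of all genes. At chase 4, POC4, an assembly chaperone of the core, fell (log2 change −0.25, SE 0.08, edgeR adjusted p = 0.049), as 1 of 16 in its list with 0 higher, beside 4.64% of all genes lower. In the shuttle list NPL4, a Cdc48 cofactor, rose (0.35, SE 0.08, 0.0119) and CUZ1, a zinc finger protein that binds Cdc48 and the proteasome, fell (−0.25, SE 0.07, 0.0413), as 1 and 1 of 13, beside 7.96% of all genes higher and 4.64% lower. At chase 18, IRC25 (−0.53, SE 0.12, 0.0118) and NAS2 (−0.53, SE 0.11, 0.00844), chaperones of core and base assembly, fell, with 0 of 16 higher, beside 11.2% of all genes lower. NPL4 (0.33, SE 0.11, 0.0489) and UFD4, a ubiquitin ligase (0.35, SE 0.09, 0.0261), rose, with 0 of 13 lower, beside 12.0% of all genes higher.

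Among the regulators of RPN4, calls were made at chase 18. YAP1, an activator of the oxidative stress response that also acts on RPN4, rose by 0.72 on the log2 scale (SE 0.13, edgeR adjusted p = 0.00419), and MUB1, a partner of the ligase that ubiquitinates Rpn4, by 0.71 (SE 0.16, 0.0107). These were 2 of 7, with 0 lower, beside 12.0% of all genes higher. At chase 58, UMP1, a chaperone of core maturation (−0.51, SE 0.12, 0.0204), and TMA17, an assembly chaperone of the base (−0.71, SE 0.11, 0.00184), fell as 2 of 16. The polyubiquitin gene UBI4 fell (−0.94, SE 0.12, 0.000603), as 1 of 13, both beside 6.55% of all genes lower. The list medians at chase 4, 18 and 58 were −0.17, −0.05 and −0.13 for the assembly list, 0.05, 0.11 and −0.26 for the shuttle list and 0.10, 0.07 and 0.18 for the regulators of RPN4, beside 0.01, 0.04 and 0.04 over all genes.

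Labelled proteasome mRNA was lost along much the same course in all 6 cultures. By the median of the subunit genes, labelled T>C conversion above background stood at 85.7%, 85.7% and 85.9% of its chase 0 value at chase 4 in deletion cultures 1 to 3 and at 86.8%, 84.1% and 84.6% in wild type. At chase 18 it stood at 31.7%, 27.5% and 26.6% in the deletion and 27.0%, 26.3% and 26.9% in wild type, and at chase 58 at 3.79%, 2.29% and 2.31% in the deletion and 1.60%, 2.70% and 2.46% in wild type. Over all genes the medians at chase 4 were 84.2%, 81.3% and 80.1% in the deletion and 77.8%, 73.5% and 75.5% in wild type. The subunit medians at chase 4 were thus above those of all genes in all 6 cultures, with the wider gap in wild type. At chase 18 all genes stood at 31.2%, 28.0% and 27.0% in the deletion and 24.9%, 22.7% and 23.95% in wild type, so the subunit medians were above them in 4 of 6 cultures and below in deletion replicates 2 and 3. At chase 58 all genes stood at 3.54%, 3.05% and 3.03% in the deletion and 2.40%, 2.87% and 3.04% in wild type, and the subunit medians were below in 5 of 6 cultures, all but deletion replicate 1.

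**Figure D4:**
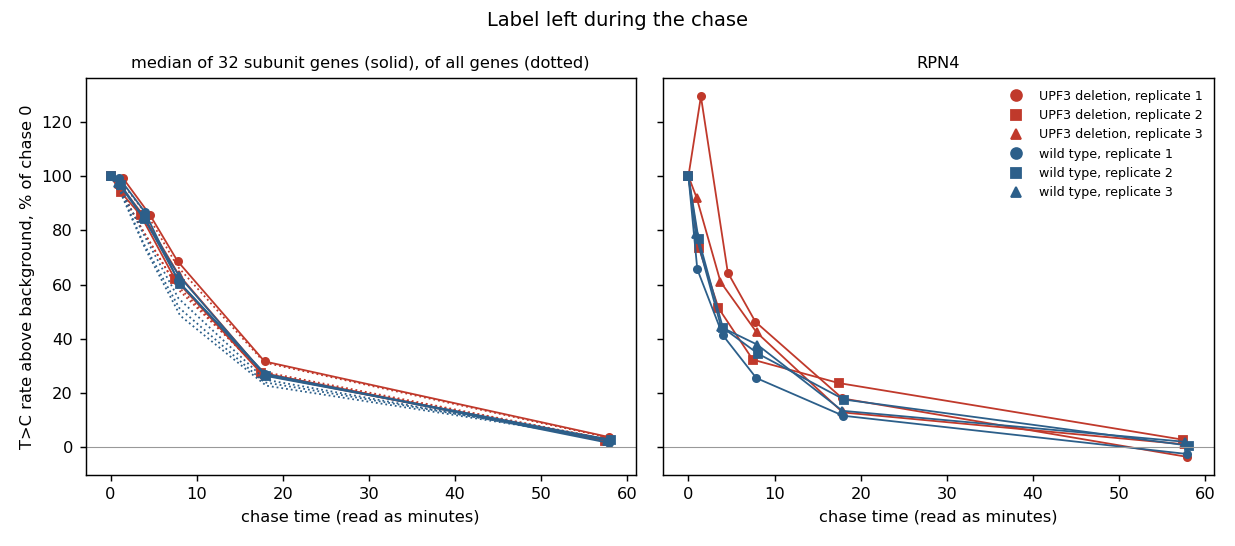
T>C conversion rate above the unlabelled background, as a percentage of chase 0, against chase time (read as minutes), the UPF3 deletion in red and wild type in blue. The left panel has the median of the 32 subunit genes (solid, symbols) and of all genes (dotted), and the right panel RPN4, which falls to 41.4% to 44.3% by chase 4 in wild type, well below the subunit medians of 84.1% to 86.8%.

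Half-lives from a read-weighted line of log2 conversion on time gave no call between genotypes. The subunit median was 10.8 ± 0.71 in the deletion and 10.4 ± 0.68 in wild type (SD over culture medians, n = 3 each), against 11.7 ± 0.40 and 11.4 ± 0.15 over all genes. By limma 0 of 32 subunit genes were called, beside 0% of all 5333 genes (1 subunit gene shorter at an unadjusted p under 0.05). Wild-type means ran from 8.20 for RPN7 to 12.6 for PRE5, while the 5th and 95th percentiles of all genes were 8.50 and 17.02. PRE5 (YMR314W) had half-lives of 8.19, 10.2 and 10.9 in the deletion and 12.4, 12.6 and 12.9 in wild type, without overlap, and gave the lowest p (log2 change −0.38, SE 0.15, limma adjusted p = 0.857). By the line RPT6 and RPN3 also had the deletion below without overlap, beside 4.50% of all genes, and RPT2 had it above, beside 7.54% (12.0% either way). By the nonlinear fit the groups of PRE5 overlapped, at 12.1, 12.2 and 13.8 in the deletion and 13.2, 11.3 and 15.2 in wild type.

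The line leans on the last point, where little label is left. RPN7, the shortest by the line, had 12.3, 9.97 and 10.4 in the deletion and 4.87, 10.5 and 9.20 in wild type, and the 4.87 belonged to a culture in which 0.0306% of its label was left at chase 58. The nonlinear fit of a single exponential gave RPN7 9.97, 9.81 and 11.7 in the deletion and 10.6, 10.8 and 9.94 in wild type, with overlap. By this fit the subunit median was 10.3 ± 0.42 in the deletion and 10.1 ± 0.21 in wild type, and the median of all genes 10.3 ± 0.81 in the deletion and 8.52 ± 0.50 in wild type. No subunit gene was among the 21 genes called longer by it, which were 0.389% of 5399. The 5th and 95th percentiles of the subunit genes in wild type were 8.63 and 13.3, beside 5.08 and 19.3 over all genes.

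The active-site genes had no called change in half-life. By the nonlinear fit PRE3 had 13.3, 15.4 and 14.6 in the deletion and 14.2, 13.4 and 12.6 in wild type, at the 83.5 percentile of all wild-type genes. PUP1 had 13.0, 7.95 and 8.56 in the deletion and 11.6, 8.51 and 8.91 in wild type, with replicate 1 the longest in both. PRE2 had 13.7, 12.8 and 10.8 in the deletion and 10.7, 9.92 and 11.1 in wild type. RPN11 had 8.86, 10.9 and 8.47 in the deletion and 7.42, 8.73 and 9.004 in wild type. In all of these genes the genotypes overlapped. RPN13 had 16.6, 14.1 and 16.3 in the deletion and 12.7, 11.3 and 14.1 in wild type, without overlap (log2 change 0.30, SE 0.12, limma adjusted p = 0.317), and was 1 of 2 subunit genes with the deletion above, the other being PRE1, beside 21.8% of all genes. RPT4 was the 1 subunit gene with the deletion below, at 7.88, 7.60 and 7.61 in the deletion and 9.34, 8.22 and 8.90 in wild type, beside 1.17% of all genes.

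The share of label in RPN4 reads fell early. By the nonlinear fit the half-life of RPN4 was shorter than that of every subunit gene, while by the line it lay among them. At chase 4 its conversion stood at 64.4%, 51.4% and 61.0% of chase 0 in the deletion and 41.4%, 44.1% and 44.3% in wild type. Unlabelled RNA made during the chase also lowers this share. The reads of RPN4 were higher at chase 4 than at chase 0 in 6 of 6 cultures. The part of that rise in the share and in the half-life of RPN4 was not tested. By the nonlinear fit its half-life was 5.85, 5.04 and 5.96 in the deletion and 3.83, 5.03 and 4.97 in wild type, at the 2.43 percentile of wild-type genes, below the mean of every subunit gene in both genotypes (lowest 7.70 in the deletion and 8.25 in wild type). The lowest deletion culture and the highest wild-type culture were nearly equal, and the log2 change was 0.29 (SE 0.21, limma adjusted p = 0.556). By the line RPN4 had 6.39, 12.1 and 8.83 in the deletion and 6.32, 8.25 and 10.7 in wild type. Its means by the line were 9.12 ± 2.88 in the deletion, within the subunit range of 8.32 to 11.9, and 8.43 ± 2.21 in wild type, above the 8.20 of RPN7 (SD, n = 3 each). In replicate 1 of both genotypes its signal at chase 58 was under background, at −3.51% and −2.48%, and that point was not used.

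**Figure D5:**
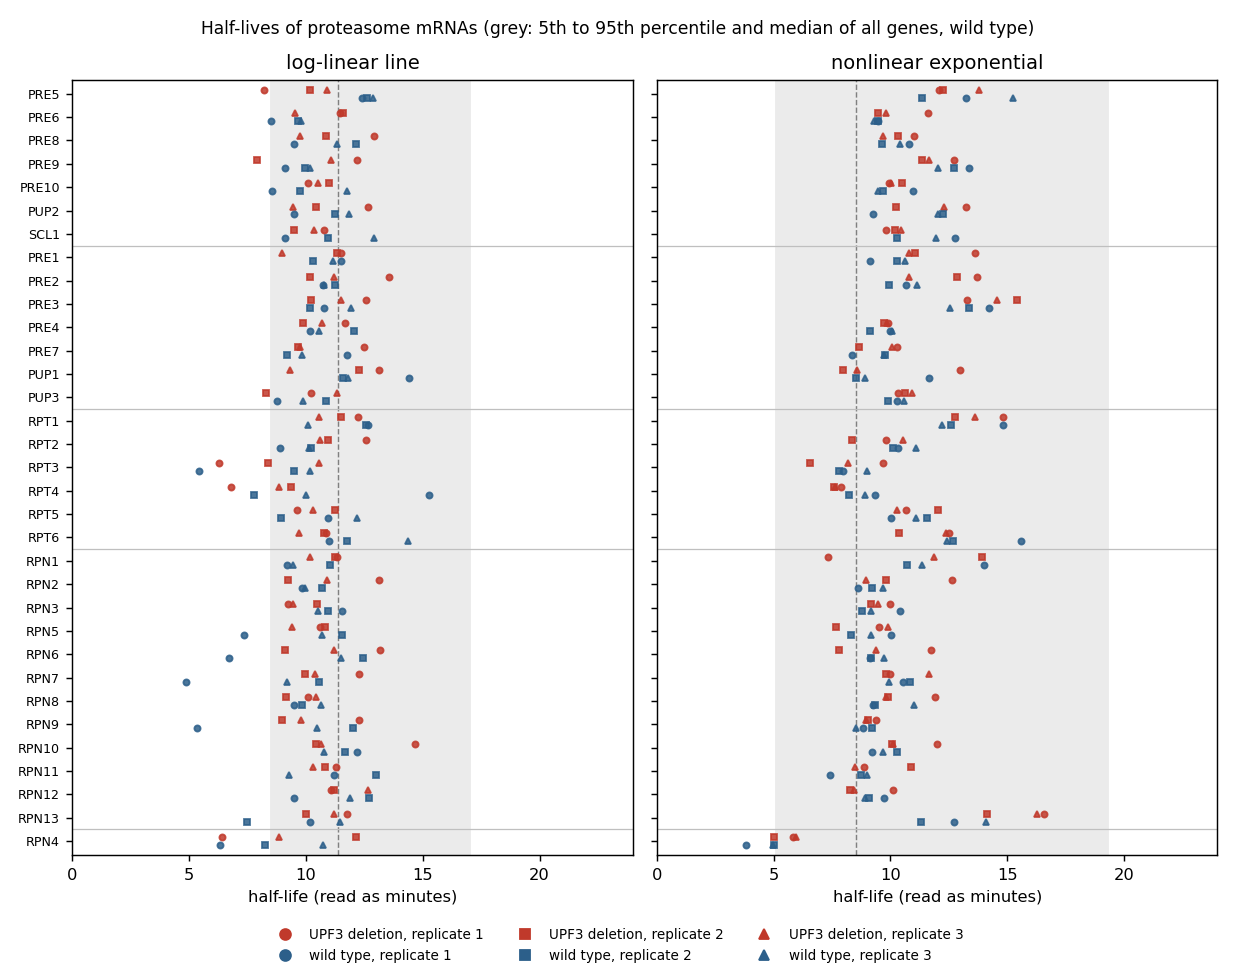
Half-lives (read as minutes) of each proteasome gene and culture by the line (left) and the nonlinear exponential (right), the UPF3 deletion in red above wild type in blue within each row, with the 5th to 95th percentile of all genes in wild type in grey and their median dashed. RPN4 lies at the bottom, at 3.83 to 5.96 by the nonlinear fit, left of the subunit genes, and wild-type replicate 1 lies at 4.87 for RPN7 by the line and at 10.6 by the nonlinear fit.

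The label at the start of the chase gave no call between genotypes. At chase 0 the subunit median of T>C conversion above background was 2.46%, 2.42% and 2.63% in deletion cultures 1 to 3 and 2.81%, 2.46% and 2.70% in wild type, and that of all genes 2.52%, 2.39% and 2.66% in the deletion and 2.80%, 2.52% and 2.78% in wild type. Of 32 subunit genes, 29 were lower in the deletion and 0 were called by limma, beside 0% of all 5404 genes (0 at an unadjusted p under 0.05). The median of all genes was also lower in the deletion in each numbered pair, and the share of all genes that were lower is not given here. PRE6 had the lowest p (log2 change −0.27, SE 0.14, limma adjusted p = 0.796). RPN4 had 2.18%, 2.49% and 2.57% in the deletion and 3.64%, 2.76% and 3.30% in wild type, without overlap, as for 8.66% of all genes (−0.42, SE 0.13, adjusted p = 0.796). Between 5671 and 175855 T bases were covered per member and culture at chase 0.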

How the data were processed

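Libraries were made from 3′ ends with QuantSeq FWD, per the labels' protocols. The deposited files hold read counts per gene window, T>C conversion rates as a fraction and covered T base counts, as SlamDunk output per the file headers. The genome build was R64, per the submitters' processing notes. Program versions and strand settings were not given in the sources used here. Of 5560 gene IDs, 5558 matched the RefSeq gene table.

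Counts were tested with edgeR 4.0.16 (quasi-likelihood, TMM, adjusted p under 0.05 by Benjamini-Hochberg over all genes), with the culture as a block within cultures, and with DESeq2 1.42.0 as an alternative. Half-lives came from a read-weighted line of log2 background-subtracted conversion on time (mean of 20 or more reads, 3 or more points above background), tested with limma 3.58.1 in R 4.3.3, as was the first label; a nonlinear exponential was the alternative. The tests were run on simulated data first. P-values cover the spread between these cultures. The members and lists were chosen with earlier results of these data known. Values per culture were given, by rule, for RPN4, the active-site genes, RPN11, the called member with the largest rise or fall per comparison (with no call, the lowest p) and the longest and shortest half-lives by the line; PRE4 at chase 58, URA4 and the block calls were added after their values were seen.

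Same-numbered cultures deviated together, with correlations of 0.791, 0.794 and 0.57 across genes in unlabelled and 0.938, 0.908 and 0.864 in labelled libraries, so the numbers were taken to pair the cultures. Replicates 2 and 3 of opposite genotypes also correlated, at 0.505 and 0.514 in unlabelled and 0.788 and 0.822 in labelled libraries, so the pairing mainly sets replicate 1 apart.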

Additional observations from a re-analysis of the deposited data

Results flagged for a closer look

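In 6 of 37 groups of 6 cultures examined, 1 culture stood far from the others in the log2 ratio of reads at chase 18 over chase 0, where chance gives about 1 in 20. Deletion replicate 1 was that culture for 5 genes, at 1.06 for RPN6, 1.05 for RPN7, 0.87 for RPN11, −0.28 for PRE2 and −0.86 for RPN12. Wild-type replicate 2 was the one for PRE3, at −0.30. The 37 groups cover the genes named in each comparison. Over all 33 members 17 stood out in this way at chase 18, 15 of them through deletion replicate 1, which lay at 1.91 for RPN2, 1.66 for RPT1 and 1.61 for RPN1. The counts were 8 in the first labelled library, 3 at chase 4 and 6 at chase 58, of which 6, 2 and 5 were through deletion replicate 1. The share of all genes that stood out in this way is not given here, so these counts stand without a background. The genes share the same libraries, so the rate of 1 in 20 is no measure of how many should stand out together. The chase 0 library of deletion replicate 1, to which its ratios refer, stood apart as given above. Its part in these values was not tested.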

How the results depend on the processing

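No alternative gave a named gene the opposite sign where the value as reported or the alternative passed the test. Among values that passed in neither, signs did change: at chase 58 PRE6 (−0.28 as reported) was 0.10 and RPN11 (−0.15) was 0.06 in the deletion alone, and RPT4 (0.04) was −0.38 in wild type alone. Counts are subunit genes of 32. With the replicate block, which pairs the cultures, 1 was higher in unlabelled reads, 1 higher and 2 lower in labelled reads, and 2 higher and 2 lower at chase 58 between the genotypes, while half-life and first label stayed at 0. Leaving out cultures gave 0 to 1 higher in labelled reads, 0 to 3 higher and 0 to 5 lower in the first labelled library, 2 to 10 lower at chase 4, 0 to 1 higher and 0 to 5 lower at chase 18, and 1 to 7 lower at chase 58. Without the culture block there were 0 lower in the first labelled library, 0 lower at chase 4, 0 higher and 0 lower at chase 18 and 1 lower at chase 58. DESeq2 gave 9 lower at chase 4, and a fit of all 42 libraries gave 2 at chase 4 and 10 at chase 58. The deletion alone had 0 in the first labelled library, 0 at chase 4, 0 higher and 0 lower at chase 18 and 0 at chase 58. Wild type alone had 0, 0 and 8 lower in the first labelled library, at chase 4 and at chase 58, and 1 higher and 3 lower at chase 18. For wild type alone in the first labelled library and at chase 18, the share of all genes called is not given here. The same holds for labelled reads with cultures left out and for all counts at an unadjusted p under 0.05. Those counts therefore stand without a background. The fits of each genotype alone, and the direct comparison at chase 58, were chosen after seeing the data. The cause was not tested. Of the values of single genes, 1683 kept their side of the threshold, uncalled values that stayed uncalled included, 61 lost a call and 24 gained one. Each called value among these had 14 alternative settings. At chase 4 the call was kept in 12 for RPN4, 11 for PUP2, 11 for RPN12, 9 for PRE6 and 5 for PUP1. At chase 18 it was kept in 10 for PUP2, 8 for RPN7 and 8 for RPN12. At chase 58 it was kept in 6 for PUP2 and 6 for RPN12. In the first labelled library it was kept in 7 for RPN7. Label at the last point is a few percent of its start, which limits the line.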
